A study of Homo sapiens with 6 samples.

Results

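Genes for the factors that start and extend protein synthesis were compared between SW403 cells with and without IRS2 knockdown. The members were the rows of the deposited count table whose gene symbol starts with EIF (initiation factors) or EEF (elongation factors). The EIF2AK kinases, the EIF4EBP binding proteins and pseudogenes were left out, which removed 8 rows and 1 row. This gave 68 of the 26490 rows: 49 initiation genes, 15 elongation genes and 4 antisense, divergent or readthrough rows (EIF3J-DT, EIF1AX-AS1, EIF1B-AS1 and the readthrough EEF1AKMT4-ECE2). The low-count filter was passed by 47 initiation genes, all 15 elongation genes and EIF3J-DT. The initiation genes that did not pass were EIF4E1B, for which all 6 libraries held 0 counts, and EIF1AY, which lies on the Y chromosome and whose level is not given here. EIF1AD was counted with the initiation genes, and 6 methyltransferase genes, the kinase gene EEF2K and EEF1E1 with the elongation genes, by symbol only.

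SW403 is an established human colon adenocarcinoma line. The 3 control libraries came from cells with the genotype label WT and the description DMEM_NS, and the 3 knockdown libraries from cells with the genotype label IRS2_knockdown and the description DMEM_IRS2KO. Both groups were grown for 24 h in DMEM with 10% fetal bovine serum and no added treatment, and the series title concerns brain metastases of colorectal cancer. How IRS2 was lowered, and whether the replicates came from separately made lines, is not given in the sources used here, so p-values measure the spread between these libraries, which may be technical.

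In translation initiation, eIF2 with GTP carries the initiator tRNA to the small ribosomal subunit, and eIF2B recharges eIF2 with GTP. The eIF3 complex is the scaffold on the small subunit, and eIF4F, made of the cap-binding protein eIF4E, the scaffold eIF4G and the helicase eIF4A, recruits the mRNA. In elongation, eEF1A delivers aminoacyl-tRNA, the eEF1B subunits recharge eEF1A, and eEF2 moves the ribosome along the message. Insulin signalling through IRS proteins reaches several of these proteins by phosphorylation, which RNA counts do not measure. Many mRNAs of this machinery start with a C and a run of pyrimidines, called a terminal oligopyrimidine (TOP) start, and their translation responds to mTOR.

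The start sites of 7 members are shown because their mRNAs differ in this feature, and because 2 of them, EIF4A1 and EIF4A2, encode near-identical helicases. Each line gives 10 bases before and 20 bases from the first base of the transcript, 5′ to 3′, and capitals mark a run that begins at the start with C and at least 4 further pyrimidines, which the start of EIF4A1 does not have. The sequences are from RefSeq on GRCh38.p14.
EEF1A1 (chr6:73521013-73521042, minus strand): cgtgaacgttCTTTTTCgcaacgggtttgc
EEF2 (chr19:3985444-3985473, minus strand): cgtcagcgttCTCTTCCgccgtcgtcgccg
EEF1B2 (chr2:206159885-206159914, plus strand): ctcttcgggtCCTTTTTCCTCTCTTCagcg
EIF3F (chr11:7987327-7987356, plus strand): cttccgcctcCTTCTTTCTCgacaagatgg
EIF4B (chr12:53006446-53006475, plus strand): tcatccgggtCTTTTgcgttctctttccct
EIF4A2 (chr3:186783567-186783596, plus strand): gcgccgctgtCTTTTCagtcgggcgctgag
EIF4A1 (chr17:7572815-7572844, plus strand): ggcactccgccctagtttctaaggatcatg

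The libraries held 11816973 to 12585013 counts in control and 14329348 to 18114656 counts in knockdown, so every knockdown library was deeper. IRS2, the targeted gene, averaged 32.8 ± 1.55 CPM over the control libraries and 12.5 ± 0.491 CPM over the knockdown libraries (SD, n = 3 each), a log2 fold change of -1.39 ± 0.07 (SE; edgeR adjusted p 3.12e-11). CPM values here and below are counts brought to a common library size with TMM factors, which adjust for library composition. Of 13 colon epithelium markers, 6 were at 1 CPM or more, among them KRT8, KRT18, EPCAM and CDX2, while CDH1 was at 0.265 CPM in control and KRT20, CDX1 and CEACAM5 had no read. The summed level of these markers was 2537 to 2637 CPM in control and 2364 to 2457 CPM in knockdown libraries (unscaled CPM). The 6 fibroblast markers summed to 8.97 to 27.6 CPM in control and 5.80 to 7.29 CPM in knockdown libraries, and the 5 immune markers to at most 3.47 CPM. Of the 3 endothelial markers, PECAM1 and CDH5 had no read. The part of these markers in the results below was not tested, and in bulk libraries fewer cells of a type and less RNA per cell cannot be told apart. Depth was examined only by thinning the counts to the smallest library. This left 7 initiation genes called lower in place of 11, and 4930 of all genes called in place of 5329.

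Initiation factor genes changed in both directions, and 3 genes with EEF symbols changed, 1 of them the methyltransferase gene EEF1AKNMT. Of the 47 initiation genes tested, 11 rose and 11 fell at an adjusted p under 0.05 (edgeR's quasi-likelihood test with Benjamini-Hochberg adjustment over all 13832 tested genes), or 46.8%, against 38.5% of all tested genes. In each direction the initiation share was 23.4%, against 19.3% of all genes higher and 19.2% lower. Of the 15 elongation genes, 1 rose and 2 fell, or 20%. The difference between the classes was not tested.

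The balance of initiation calls moved with the processing, to 6 higher and 14 lower with library size alone, 15 higher and 10 lower with counts corrected for the length and GC content of transcripts, and 13 higher and 8 lower without the low-count filter or on the deposited normalized values. The balance over all called genes moved as well. Of these, 50.2% were higher in the main fit and 40.8% with library size alone. The share was 51.9% with the length and GC correction, 52.3% without the filter and 53.2% on the deposited values.

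Most changes were small. Sign aside, the median log2 fold change was 0.088 over the initiation genes, 0.0943 over the elongation genes and 0.1447 over all tested genes. With the sign kept (knockdown minus control), the median was -0.0003 over the initiation genes, 0.07 over the elongation genes and -0.0039 over all tested genes. Within the elongation genes it was -0.0204 over the 6 eEF1 genes, 0.1151 over EEF2, EEF2K and EEFSEC, and 0.1201 over the 6 methyltransferase genes. With library size alone in place of TMM factors the initiation median was -0.03, all genes having moved to -0.03 as well. The elongation median was 0.04 with library size alone or without knockdown replicate 3, and 0.03 with the EIF5A genes counted as elongation factors. Only EIF4E3 changed by at least 1.5-fold past the threshold, whereas 8.51% of all tested genes did. Summed over the class, initiation genes took 1.56% ± 0.00656 of the counts in control and 1.54% ± 0.0188 in knockdown (SD, n = 3 each; exact two-sided permutation p = 0.3), and elongation genes 1.22% ± 0.0142 and 1.21% ± 0.0312 (exact permutation p = 0.7). The smallest p that 3 against 3 libraries allow is 0.1. The values of the groups did not overlap for 17 initiation genes that were higher and 12 that were lower in knockdown (36.2% and 25.5%). For the elongation genes these counts were 5 and 2 (33.3% and 13.3%). Over all tested genes the shares were 23.7% and 23.9%, or 47.6% in either direction.

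**Figure D1:**
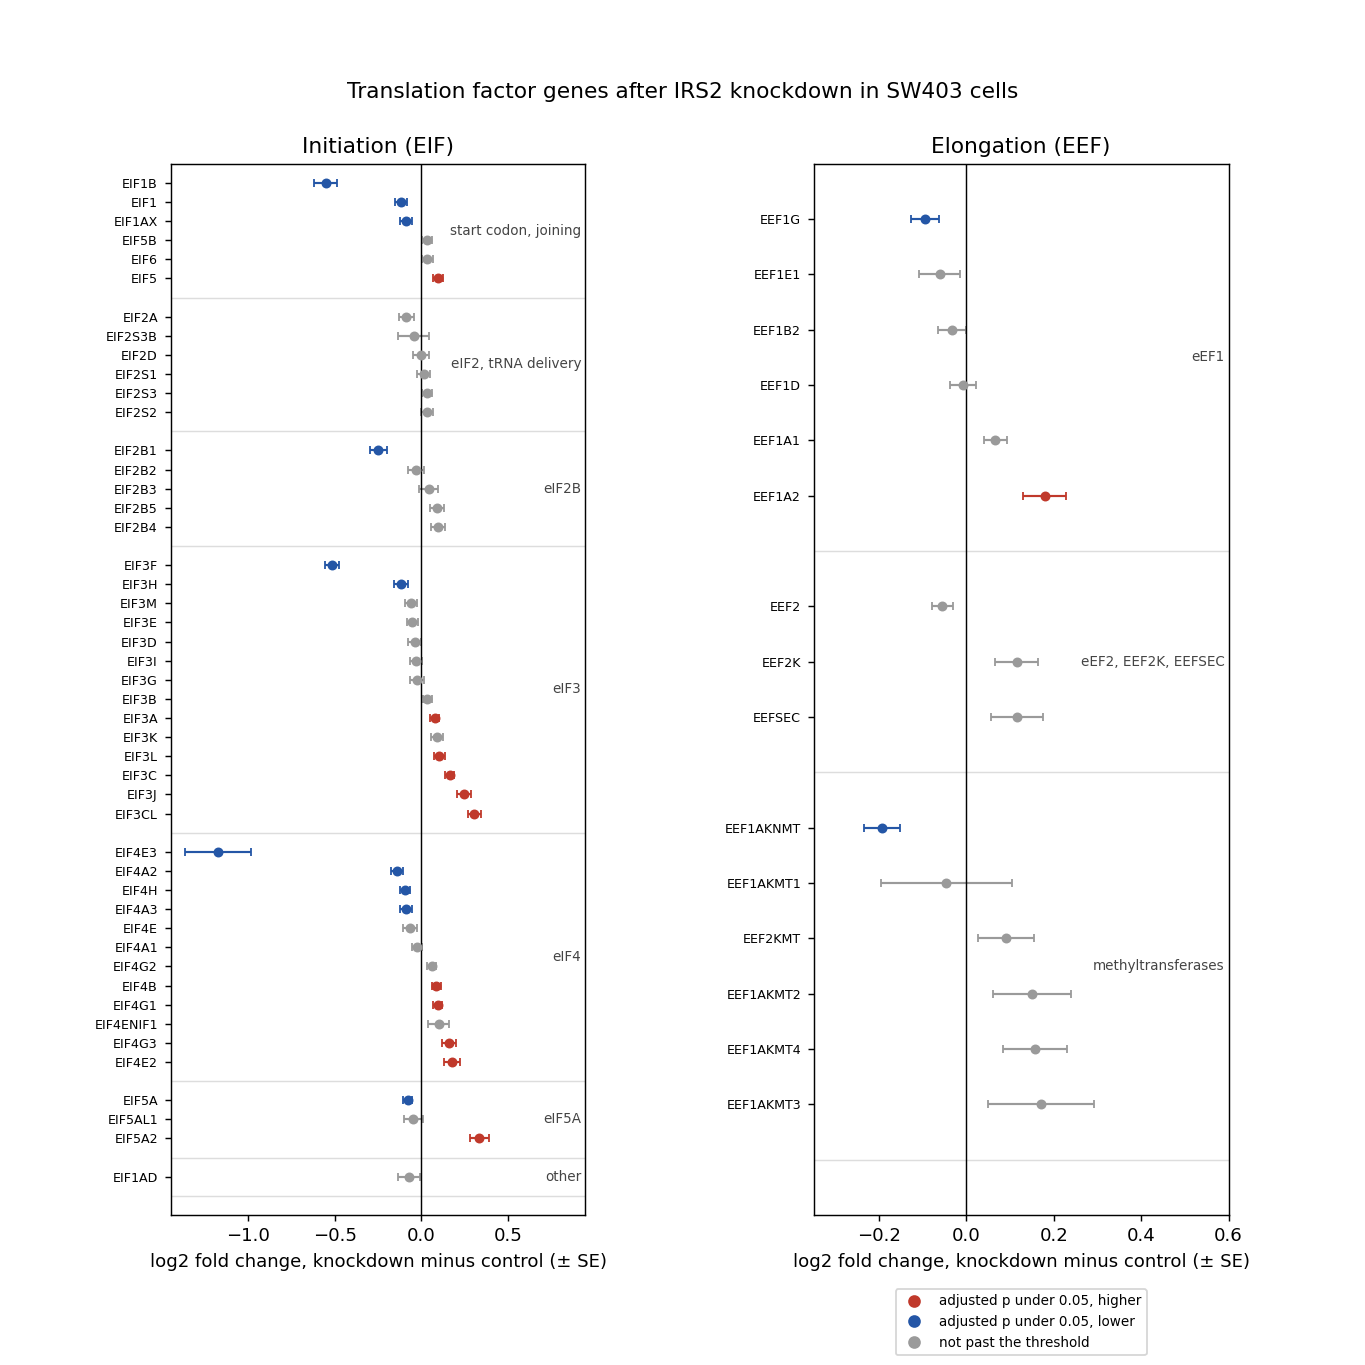
Log2 fold change of the 62 tested translation factor genes (x axis, knockdown minus control, points with bars of 1 SE from edgeR, 3 libraries per group), ordered within each functional group, with different x scales for initiation and elongation; red and blue points passed the adjusted p threshold and grey points did not. Initiation genes spread from -1.18 for EIF4E3 to 0.34 for EIF5A2, and elongation genes from -0.19 to 0.18.

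Of the 25 calls, 13 held under every one of the 19 alternative analyses and 12 were lost under at least 1. How many calls over all genes held in this way was not counted. The 13 were EIF3CL, EIF3J, EIF5A2, EIF3C, EIF4G3, EIF4E2 and EEF1A2, which rose, and EIF3F, EIF1B, EIF4E3, EIF2B1, EIF4A2 and EEF1AKNMT, which fell. The count of lower initiation genes was 7 without control replicate 1 and 6 without control replicate 2, knockdown replicate 1 or knockdown replicate 2, and the count of higher initiation genes was 7 without knockdown replicate 2. The count of lower elongation genes was 1 without any of these 4 libraries, and that of higher elongation genes was 2 without control replicate 3 or knockdown replicate 1. With the replicate number as a block, 9 initiation genes were higher and 8 lower, and 1 elongation gene was lower. Over all genes, 4319 to 5256 were called with 1 library left out and 4862 with the block, in place of 5329.

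**Figure D2:**
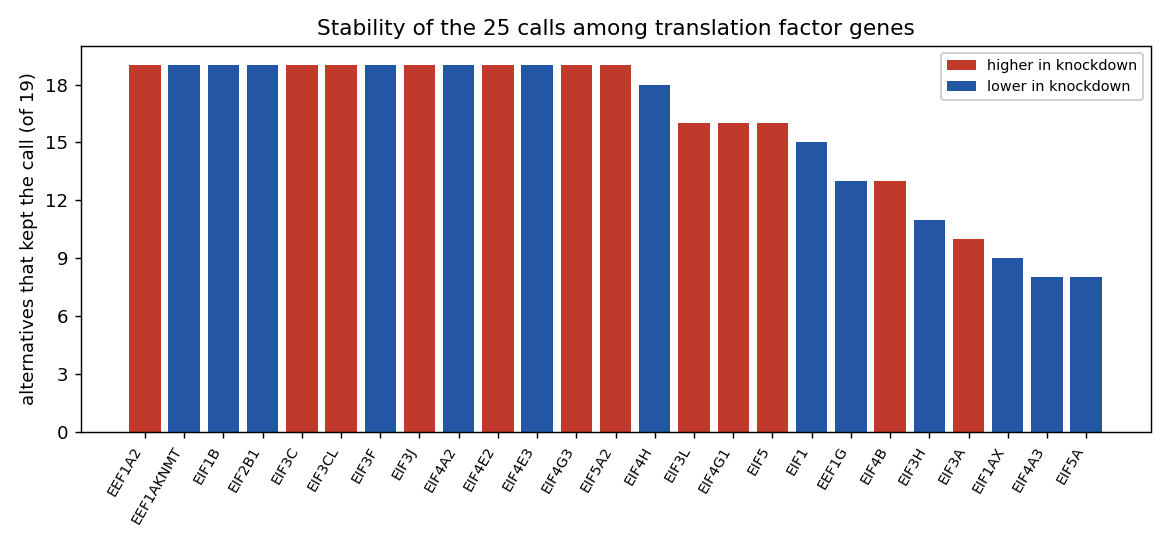
Number of the 19 alternative analyses (y axis) in which each of the 25 called translation factor genes (x axis) kept its direction and its adjusted p under the threshold; red bars were higher and blue bars lower in knockdown. The first 13 genes reach 19, and EIF4A3 and EIF5A reach 8.

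The genes of the eIF3 complex, the scaffold that holds the small ribosomal subunit and the other factors together, moved apart from each other. Of 14 genes, 5 rose (EIF3CL, EIF3J, EIF3C, EIF3L and EIF3A), 2 fell (EIF3F and EIF3H) and 7 did not pass the threshold, or 50% called against 38.5% of all tested genes, and the median log2 fold change was 0.0059. Their summed share of the counts was 0.447% ± 0.00244 in control and 0.453% ± 0.00747 in knockdown (SD, n = 3 each; exact two-sided permutation p = 0.2).

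EIF3F, which encodes a subunit with an MPN domain, had the smallest p of all members. It lies on chromosome 11 (GRCh37, 7991798 to 8023409, 8 exons in the canonical transcript). Its control libraries were at 148, 148 and 136 CPM, from 1888, 1868 and 1629 counts, and its knockdown libraries at 101, 99.7 and 102 CPM. The groups were well apart, and all 3 knockdown values lay within 3 CPM of each other. The log2 fold change of EIF3F was -0.52 ± 0.04 (SE), with an edgeR adjusted p of 8.85e-09, and the level fell by 30.02%. Over the alternatives it ranged from -0.55 to -0.49. EIF3F starts with a pyrimidine run, as shown above. EIF3H encodes the other MPN-domain subunit of the complex. It was at 158, 154 and 157 CPM in control and 138, 141 and 153 CPM in knockdown, a log2 fold change of -0.12 ± 0.04 (SE; edgeR adjusted p 0.0264), without overlap but with knockdown replicate 3 close to the controls.

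EIF3C encodes a core subunit, and EIF3CL is a near-identical copy of it, on chromosome 16 at 28699879 to 28747048 and 28390900 to 28415162 (GRCh37). How reads shared by the copies were divided is not given in the sources used here, so their separate values are uncertain. EIF3CL was at 238, 244 and 236 CPM in control and 313, 280 and 295 CPM in knockdown, with a log2 fold change of 0.31 ± 0.04 (SE; edgeR adjusted p 2.91e-06). EIF3C was at 576, 567 and 587 CPM in control and 634, 648 and 656 CPM in knockdown, with a log2 fold change of 0.16 ± 0.03 (SE; edgeR adjusted p 0.000135). The sum of both does not depend on that division, but it would miss shared reads if these were discarded, which is not known. Over the control libraries it averaged 816 ± 6.43 CPM, and over the knockdown libraries 942 ± 12.2 CPM (SD, n = 3 each; exact permutation p = 0.1, the smallest possible), and every knockdown library lay above every control library.

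EIF3J encodes the loosely bound subunit near the mRNA channel of the small subunit. It was at 175, 184 and 188 CPM in control and 209, 210 and 230 CPM in knockdown, so the groups did not overlap. The log2 fold change was 0.25 ± 0.04 (SE; edgeR adjusted p 6.88e-05). EIF3J-DT, transcribed away from the same promoter region, had a log2 fold change of -0.04 ± 0.11 (SE; edgeR adjusted p 0.822).

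EIF3L had a log2 fold change of 0.11 ± 0.03 (SE; edgeR adjusted p 0.0140) and EIF3A, the largest scaffold subunit, of 0.08 ± 0.03 (SE; edgeR adjusted p 0.0293). The 7 subunit genes that did not pass were EIF3B, EIF3D, EIF3E, EIF3G, EIF3I, EIF3K and EIF3M, with log2 fold changes from -0.06 for EIF3M to 0.09 for EIF3K. EIF3K missed the threshold at an edgeR adjusted p of 0.0573 and passed it with the correction for transcript length and GC content, at 0.16 (adjusted p 7.42e-05). Its range over all alternatives was 0.06 to 0.16.

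Of the 3 cap-binding protein genes tested, 1 rose, 1 fell and 1 did not pass, where 38.5% of all tested genes were called. EIF4E, which encodes the cap-binding subunit of eIF4F, was at 113, 110 and 115 CPM in control and 102, 108 and 112 CPM in knockdown, and the groups overlapped. Its log2 fold change was -0.07 ± 0.04 (SE; edgeR adjusted p 0.222). EIF4E2 encodes 4EHP, a cap-binding relative that does not join eIF4G and is known as a translational repressor. It was at 51.7, 53.6 and 53.6 CPM in control and 58.7, 58.2 and 62.5 CPM in knockdown, with a log2 fold change of 0.18 ± 0.05 (SE; edgeR adjusted p 0.00671) and no overlap. EIF4E3 encodes another cap-binding relative and had few reads, 55, 79 and 80 counts in control and 37, 46 and 41 in the deeper knockdown libraries. This was 4.32, 6.26 and 6.68 CPM against 2.6, 2.72 and 2.3 CPM, so the lowest control value, that of replicate 1, was still above every knockdown value. The log2 fold change of EIF4E3 was -1.18 ± 0.19 (SE), a 2.26-fold decrease, with an edgeR adjusted p of 6.68e-05, and it ranged from -1.35 to -1.05 over the alternatives. EIF4E3 lies on chromosome 3 (GRCh37, 71724565 to 71803924).

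Of the 12 tested genes of the eIF4 group, 4 rose, 4 fell and 4 did not pass, or 66.7% called against 38.5% of all tested genes, and the median log2 fold change was 0.02. The eIF4G scaffold genes EIF4G1 and EIF4G3 rose. EIF4G1 was at 950, 970 and 966 CPM in control and 1037, 1038 and 1006 CPM in knockdown (log2 fold change 0.09 ± 0.03 SE, edgeR adjusted p 0.00836; 0.06 with the length and GC correction). EIF4G3, its paralogue, was at 131, 136 and 137 CPM in control and 151, 157 and 144 CPM in knockdown (0.16 ± 0.04 SE, edgeR adjusted p 0.00292). Neither overlapped between groups. EIF4G2 encodes a related protein that lacks the cap-binding-protein site, and it did not pass.

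The eIF4A helicase genes fell or stayed below the threshold. EIF4A2 was at 227, 215 and 223 CPM in control and 207, 200 and 197 CPM in knockdown (log2 fold change -0.14 ± 0.03 SE, edgeR adjusted p 0.00320). EIF4A1, the more abundant helicase, was at 1663, 1654 and 1631 CPM in control and 1593, 1596 and 1676 CPM in knockdown, with overlap, and its log2 fold change was -0.02 ± 0.03 (SE; edgeR adjusted p 0.517). EIF4A3 belongs to the exon junction complex and not to eIF4F, and had -0.09 ± 0.03 (SE; edgeR adjusted p 0.0452). The helicase cofactors split: EIF4H fell (-0.09 ± 0.03 SE, edgeR adjusted p 0.00893) and EIF4B rose (0.09 ± 0.03 SE, edgeR adjusted p 0.0188).

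The genes of eIF2 and of initiator tRNA delivery showed no call in either direction, while 38.5% of all tested genes were called. All 6 tested genes, namely the eIF2 subunit genes EIF2S1, EIF2S2, EIF2S3 and EIF2S3B and the genes of the separate factors EIF2A and EIF2D, had log2 fold changes between -0.09 and 0.03. EIF2S1, which encodes the subunit phosphorylated in the integrated stress response, was at 264, 255 and 265 CPM in control and 251, 264 and 276 CPM in knockdown (0.01 ± 0.04 SE, edgeR adjusted p 0.809). EIF2S3 and EIF2S3B are near-identical copies, so their separate values are uncertain. Of the 5 genes of eIF2B, the exchange factor of eIF2, only EIF2B1 passed, or 20% against the same 38.5%. EIF2B1, the regulatory alpha subunit, was at 76.1, 67.6 and 70.2 CPM in control and 58.5, 59.1 and 62.3 CPM in knockdown, with no overlap (log2 fold change -0.25 ± 0.05 SE, edgeR adjusted p 0.000607). The catalytic subunit gene EIF2B5 and the others did not pass, and the highest log2 fold change in the group was 0.10.

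Of the 6 genes for start codon selection and subunit joining, 3 fell and 1 rose, or 66.7% called against 38.5% of all tested genes. EIF1B is a paralogue of EIF1, which keeps the scanning ribosome from stopping at wrong codons. EIF1B was at 37.3, 32.1 and 32.9 CPM in control and 23, 23 and 23.7 CPM in knockdown. The groups were far apart relative to their spread, with a log2 fold change of -0.55 ± 0.07 (SE) and an edgeR adjusted p of 2.59e-06, and the level fell by 31.8%. It lies on chromosome 3 (GRCh37, 40351198 to 40353915, 4 exons). EIF1 itself was at 299, 280 and 277 CPM in control and 256, 258 and 275 CPM in knockdown, a narrow gap (-0.12 ± 0.04 SE, edgeR adjusted p 0.0163). EIF1AX fell with overlapping groups (-0.09 ± 0.03 SE, edgeR adjusted p 0.0415), and EIF5, the GTPase activator of eIF2, rose (0.10 ± 0.03 SE, edgeR adjusted p 0.0123). EIF5B and EIF6 did not pass.

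Of the 3 eIF5A genes, EIF5A2 rose, EIF5A fell and EIF5AL1 did not pass, or 66.7% called against 38.5% of all tested genes. EIF5A encodes the hypusine-carrying factor that helps stalled ribosomes and is named for initiation although it acts mainly in elongation and termination. It was at 1784, 1761 and 1741 CPM in control and 1617, 1652 and 1735 CPM in knockdown (log2 fold change -0.08 ± 0.03 SE, edgeR adjusted p 0.0322), so knockdown replicate 3 nearly reached the lowest control. The call of EIF5A was lost in 11 of the 19 alternatives, and with the length and GC correction its log2 fold change was -0.04 (adjusted p 0.0788). EIF5A2, its paralogue, was at 42.7, 49.0 and 51.1 CPM in control and 60.9, 60.1 and 59.1 CPM in knockdown, all above every control (0.34 ± 0.06 SE, edgeR adjusted p 0.000106), the largest rise of any member. EIF5AL1 is a near-identical, intronless copy of EIF5A. The sum of EIF5A and EIF5AL1 averaged 1805 ± 22.9 CPM over the control and 1709 ± 62.1 CPM over the knockdown libraries (SD, n = 3 each; exact permutation p = 0.1).

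**Figure D3:**
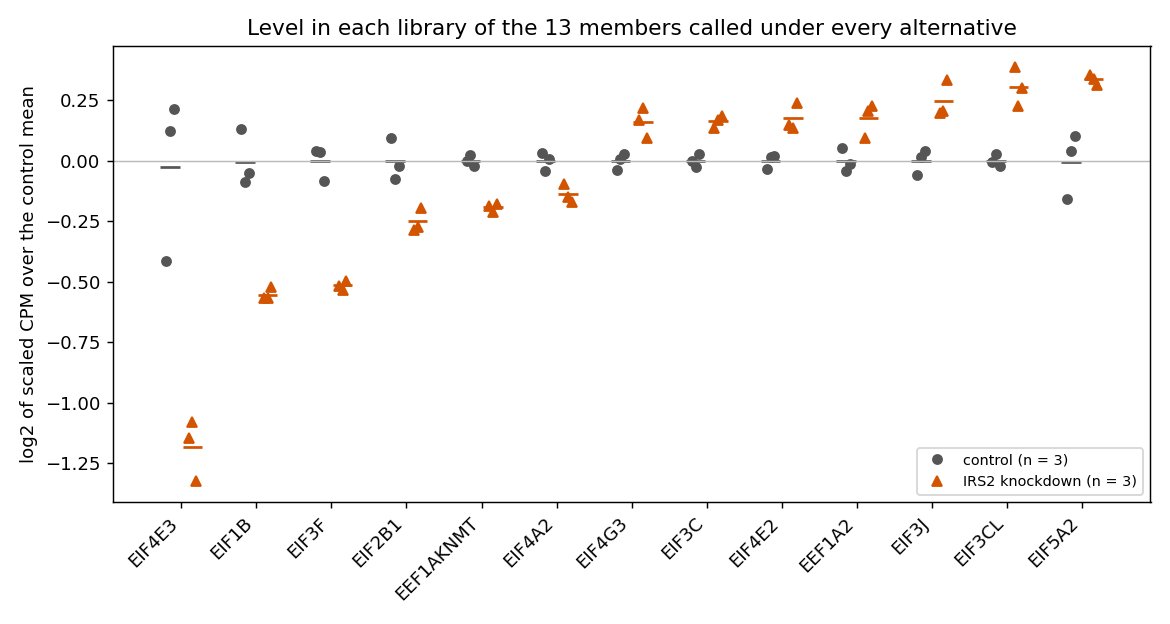
Level of the 13 members called under every alternative in each library (y axis, log2 of scaled CPM divided by the control mean; grey circles control, orange triangles knockdown, short lines the mean of 3 libraries). For each gene the knockdown libraries lie wholly above or wholly below the control libraries, farthest for EIF4E3. The genes were chosen by calls on these same libraries, so their separation is no further evidence. Of all tested genes, 47.6% did not overlap between groups.

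Elongation factor genes included the most abundant member. Per kilobase of the canonical transcript, EEF1A1 was at 2042 CPM per kb in control, against 1394 for EIF5A, 938 for EIF4A1, 856 for EEF2 and 33.9 for EEF1A2. EEF1A1 alone took 0.724% ± 0.00800 of all counts in control and 0.742% ± 0.0250 in knockdown (SD, n = 3 each; exact permutation p = 0.4). It was at 7203, 7259 and 7056 CPM in control and 7278, 7420 and 7830 CPM in knockdown, just without overlap, and its log2 fold change of 0.07 ± 0.03 (SE) missed the threshold (edgeR adjusted p 0.0542). It passed under 7 of the 19 alternatives, without knockdown replicate 1 among them (0.09, adjusted p 0.0154). Without knockdown replicate 3 the EEF1A1 log2 fold change was 0.04 and did not pass. EEF1A1 has many near-identical processed pseudogenes, so its value is uncertain.

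EEF1A2, the paralogue that carries aminoacyl-tRNA in muscle and neurons and is often expressed in tumours, rose. Its control libraries were at 62.3, 58.5 and 59.6 CPM and its knockdown libraries at 64.1, 69.3 and 70.4 CPM. The gap between the groups was narrow at control replicate 1 and knockdown replicate 1. The log2 fold change was 0.18 ± 0.05 (SE; edgeR adjusted p 0.00668), and the range over the alternatives was 0.15 to 0.22. EEF1A2 lies on chromosome 20 (GRCh37, 62119366 to 62130592).

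Of the other eEF1 genes, EEF1G, EEF1B2 and EEF1D encode subunits of the exchange factor eEF1B, and EEF1E1 encodes an auxiliary protein of the aminoacyl-tRNA synthetase complex. EEF1G was at 1182, 1181 and 1142 CPM in control and 1053, 1078 and 1152 CPM in knockdown, with overlap through knockdown replicate 3 (-0.09 ± 0.03 SE, edgeR adjusted p 0.0238). With the replicate number as a block its adjusted p was 0.0555. EEF1B2, EEF1D and EEF1E1 did not pass and had log2 fold changes of -0.03 ± 0.03, -0.0071 ± 0.0298 and -0.06 ± 0.05 (SE), and the groups overlapped for each.

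EEF2, the translocase, was at 2738, 2716 and 2658 CPM in control and 2579, 2616 and 2611 CPM in knockdown. All 3 knockdown values were lower, but the log2 fold change of -0.06 ± 0.02 (SE) missed the threshold (edgeR adjusted p 0.0772). It passed under 7 of the 19 alternatives, among them library size alone (-0.09, adjusted p 0.00361) and leaving out knockdown replicate 3 (-0.06, adjusted p 0.0489). EEF2K, the kinase that phosphorylates and inhibits eEF2, was at 49.1, 52.4 and 53.6 CPM in control and 54.0, 56.6 and 57.1 CPM in knockdown (0.12 ± 0.05 SE, edgeR adjusted p 0.0755). It passed without control replicate 3 (0.15, adjusted p 0.0499).

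Of the 6 methyltransferase genes for elongation factors, EEF1AKNMT, whose enzyme methylates eEF1A at its N-terminus and at a lysine, fell. It was at 80.6, 81.9 and 79.4 CPM in control and 70.8, 69.7 and 71.2 CPM in knockdown. The spread within each group was far smaller than the gap (log2 fold change -0.19 ± 0.04 SE, edgeR adjusted p 0.00101). The other 5 (EEF1AKMT1, EEF1AKMT2, EEF1AKMT3, EEF1AKMT4 and EEF2KMT) did not pass, with log2 fold changes up to 0.17. The share called was 16.7%, against 38.5% of all tested genes.

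Several calls above did not pass with 1 library fewer, often with a similar fold change, and over all genes 4319 to 5256 were then called in place of 5329. EIF4H did not pass without control replicate 2 (-0.08, edgeR adjusted p 0.0765), nor EIF5 without it (0.09, 0.0531). EIF4G1 and EIF3L did not pass without knockdown replicate 2 (0.09, adjusted p 0.0593, and 0.08, 0.106). EIF1 was lost without control replicate 1 (-0.08, adjusted p 0.101), knockdown replicate 1 (-0.10, 0.0770) or knockdown replicate 2 (-0.10, 0.0852). EEF1G was lost without control replicate 1 (-0.09, adjusted p 0.0746), control replicate 2 (-0.08, 0.117), knockdown replicate 1 (-0.07, 0.141) or knockdown replicate 2 (-0.08, 0.112). EIF4B was lost without control replicate 3 (0.08, adjusted p 0.0560) or knockdown replicate 2 (0.08, 0.0810), and EIF3A without control replicate 1 (0.07, 0.101), control replicate 2 (0.09, 0.0610) or knockdown replicate 2 (0.07, 0.119). The calls of EIF5A, EIF3H, EIF1AX and EIF4A3 were lost in 4 or 5 of the 6 fits that left out a library, and only leaving out knockdown replicate 3 ended none of them.

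Within paralogue pairs, the share of the minor gene in the summed counts is free of the scaling between libraries. EIF1B made up 10.7% ± 0.420 of EIF1 plus EIF1B in control and 8.13% ± 0.160 in knockdown (SD, n = 3 each). EIF4E2 made up 32.0% ± 0.735 of its pair with EIF4E in control and 35.8% ± 0.735 in knockdown. EIF5A2 rose from 2.63% ± 0.265 to 3.48% ± 0.169 of its pair with EIF5A. These 3 shares moved the most relative to their level. EIF4A2 was at 11.8% ± 0.275 and 11.1% ± 0.509 of its pair with EIF4A1, EIF4G3 at 12.3% ± 0.159 and 12.8% ± 0.314 of its pair with EIF4G1, and EEF1A2 at 0.832% ± 0.0300 and 0.897% ± 0.0266 of its pair with EEF1A1. In all 6 pairs the groups did not overlap, and each exact two-sided permutation p was 0.1, the smallest possible (Benjamini-Hochberg adjusted p 0.1 over the 6 pairs), so these differences cannot pass 0.05 by that test. Each minor gene is among the 13 members called under every alternative, so the separation of the shares is not independent of those calls. Of all tested genes taken singly, 47.6% did not overlap, and other pairs were not examined. The groups nearly met for EIF4A2 (control replicate 2 at 11.53%, knockdown replicate 1 at 11.52%). They were also close for EIF4G3 (control replicate 3 at 12.46%, knockdown replicate 3 at 12.5%). Without knockdown replicate 3 the difference in the EIF4A2 share was -0.52 percentage points in place of -0.79.

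**Figure D4:**
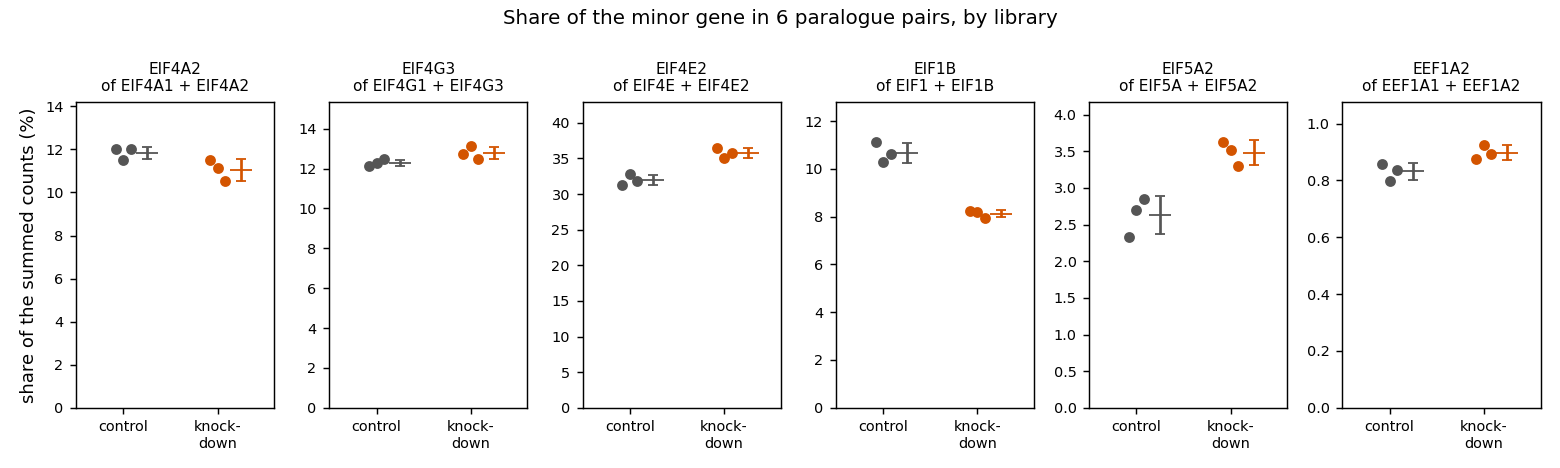
Share of the minor gene in the summed counts of 6 paralogue pairs (y axis, percent, starting at 0), by library; points are libraries, grey control and orange knockdown, and the line beside them is the mean with 1 SD (n = 3); the scale differs between pairs. EIF1B falls from 10.7% to 8.13% and EIF4E2 rises from 32.0% to 35.8% of its pair.

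Members with and without a pyrimidine start were called in both directions. A start with C followed by at least 4 further pyrimidines, read on the transcribed strand at position 1 of the RefSeq transcript, was found for 13 of the 49 tested members in the table, 10 of 40 initiation and 3 of 9 elongation genes, against 5.14% of the 27305 gene symbols and 4.07% of the 35116 start sites in it. Of these 13, 1 rose (EIF4B) and 2 fell (EIF3F and EIF4A2), and their log2 fold changes had a median of -0.04. Of the 36 without it, 7 rose and 9 fell, and the median was 0.03. An annotated start may not be the one used in these cells. Of 9 translation factor genes listed from general knowledge as TOP mRNAs, 1 rose and 3 fell (EEF1G, EIF3F and EIF3H), or 44.4%, with a median of -0.05. The 2 groupings overlap only in part. EEF1G is listed but is among the 36 without a pyrimidine start, while EIF4A2 and others with such a start are not listed. EEF1D, EIF3E and EIF3H, also listed, are not among the 49 members. Over all tested genes 38.5% were called.

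Regulators of these factors were followed in lists of genes that are not members. Of 16 regulators, 15 were tested, 2 rose and 4 fell, or 40%, near the 38.5% of all tested genes, and the median log2 fold change was 0.03. MKNK2, a kinase that phosphorylates eIF4E, fell from 194 ± 0.635 to 150 ± 1.81 CPM (SD, n = 3 each; edgeR adjusted p 3.71e-08). PDCD4, an inhibitor of eIF4A, fell from 48.8 ± 4.03 to 36.7 ± 2.56 CPM (edgeR adjusted p 5.39e-05). PPP1R15A, the inducible eIF2 phosphatase subunit, fell from 78.4 ± 1.30 to 62.1 ± 1.78 CPM (edgeR adjusted p 5.80e-06), and RPS6KB2, an S6 kinase, from 51.3 ± 4.25 to 42.6 ± 1.91 CPM (edgeR adjusted p 0.00118). EIF4EBP2 and EIF2AK3 were the 2 that rose, with log2 fold changes of 0.12 and 0.28, and EIF4EBP1, the best known inhibitor of eIF4E, did not pass (-0.03, edgeR adjusted p 0.698).

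Of 15 partner factors of initiation and termination, 14 were tested, 2 rose and 1 fell, or 21.4% against 38.5% of all tested genes. DDX3X, a helicase of scanning, rose from 780 ± 23 to 878 ± 10.2 CPM, and ABCE1, the ribosome recycling factor, from 291 ± 10.6 to 315 ± 4.94 CPM (SD, n = 3 each; edgeR adjusted p 9.88e-05 and 0.00782). ABCE1 did not pass without control replicate 1 (0.09, adjusted p 0.0568). HBS1L, a ribosome rescue factor, fell (-0.16 ± 0.04 SE, edgeR adjusted p 0.00850), a call lost in DESeq2 (adjusted p 0.0690) and without control replicate 2 (-0.14, 0.0547). DESeq2's Wald test called 3599 of all genes, in place of 5329 in the main fit. Of 9 tested enzymes that modify eIF5A or eEF2, 1 rose and 2 fell, or 33.3% against the same 38.5%. DPH3, of the diphthamide pathway that modifies eEF2, had a log2 fold change of -0.31 ± 0.06 (SE; edgeR adjusted p 0.000632). DOHH, which completes hypusine on eIF5A, had -0.18 ± 0.06 (SE; edgeR adjusted p 0.0201), lost in DESeq2 (adjusted p 0.182), with the length and GC correction (0.0561, and 0.0671 with the block added), without control replicate 2 (-0.14, 0.119) and without knockdown replicate 2 (-0.16, 0.0733). DPH1 had 0.16 ± 0.05 (SE; edgeR adjusted p 0.0237), lost in DESeq2 (adjusted p 0.104), with library size alone (0.0625), with thinned counts (0.0703) and without control replicate 1 (0.11, 0.144), knockdown replicate 2 (0.16, 0.0630) or knockdown replicate 3 (0.14, 0.0655).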

How the data were processed

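Total RNA of 6 SW403 libraries was sequenced after Illumina library preparation with PCR, per the labels. The authors deposited whole-number counts per gene symbol and a table of the same counts divided by 1 constant per library, a normalized signal. STAR 2.6.1a, Salmon, DESeq2 and hg19 are named in the submitters' processing notes without roles, so the counts may be rounded estimates; annotation and strand setting are not given in the sources used here, so overlapping and antisense genes cannot be told apart. 0 columns were unused. The counts were tested with edgeR 4.0.16 in R 4.3.3 (TMM factors, filterByExpr, quasi-likelihood F-test, group as the only term, Benjamini-Hochberg over all tested genes, threshold 0.05). The SE of a log2 fold change was derived from its F statistic, as its size over the root of F. Alternatives used limma 3.58.1, DESeq2 1.42.0, other scalings and filters (none, or a mean of at least 50 counts), thinned counts, log2 of the deposited signal plus 1, a threshold of 0.01, each library left out, the replicate block and a length and GC correction. Gene spans, length and GC content are those of GENCODE version 44 lifted to GRCh37 (95.8% of tested genes matched). The named genes were the called members, a fixed set of central factors and up to 4 called genes per list of non-members. Members and lists were chosen with earlier results of these data known. Scripts were tested on simulated counts. PCR duplicates were not told apart, so counting error understates the true error.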

Additional observations from a re-analysis of the deposited data

How the results depend on the processing

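The groups share replicate numbers in the titles, but the deviations of same-numbered libraries had correlations of 0.039, 0 and -0.092, so the numbers were not taken to pair them. With the replicate block, 4862 of all genes were called against 5329 without it, and the count of lower elongation genes fell from 2 to 1. It ended the calls of EIF4B (adjusted p 0.0552), EIF3A (0.0774), EIF5A (0.0757), EIF4A3 (0.0859), EIF1AX (0.0536) and EEF1G (0.0555) and no other call among the named members. Over all alternatives 3599 to 5722 genes were called, with 4319 to 5256 when 1 library was left out. The count of higher initiation genes was 11, and it was 6 with library size alone, 7 at a threshold of 0.01 and 7 to 12 with 1 library left out. The count of lower initiation genes was 11, and it was 7 with thinned counts, 6 at a threshold of 0.01 and 6 to 12 with 1 library left out. The count of higher elongation genes was 1, and it was 2 with DESeq2 size factors, without the low-count filter, in DESeq2's Wald test, in limma voom and when the EIF5A genes were counted as elongation factors, and 3 with the length and GC correction, with or without the block. The count of lower elongation genes was also 1 at a threshold of 0.01, and 1 to 3 with 1 library left out. The initiation median was -0.0209 with upper-quartile factors and -0.0308 with library size alone. The cause of these changes was not tested, beyond the stricter threshold, the fewer counts and the fewer libraries that some alternatives hold by construction.

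The members that changed sign did not pass the threshold in the fits named here. With the length and GC correction the log2 fold changes were 0.0004 for EIF4A1, 0.0223 for EIF3G, 0.0058 for EIF3I, 0.044 for EEF1B2, 0.0031 for EEF1D and 0.0317 for EEF1E1, and with the block added 0.0002, 0.0217, 0.0058, 0.0442, 0.0024 and 0.0334. EIF2S1 was at -0.0078 with upper-quartile factors, -0.0177 with library size alone, -0.0019 without control replicate 2 and -0.0201 without knockdown replicate 3, and with 1 library left out it ranged from -0.0201 to 0.0468. EIF3D was at 0.0048 without knockdown replicate 1 (range with 1 library left out -0.0834 to 0.0048) and EIF3G at 0.0015 without control replicate 1 (-0.066 to 0.0015). EEF1D was at 0.0043 without the low-count filter, 0.0012 in DESeq2's Wald test, 0.0006 with thinned counts, 0.0008 in limma on the deposited values, 0.0018 without control replicate 1 and 0.004 without knockdown replicate 1 (-0.0166 to 0.004). With 37 to 80 counts per library, EIF4E3 rests on the fewest reads of the called members.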
